A study of Rattus norvegicus with 16 samples.

Results

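The proteasome genes were taken as every gene on the array whose symbol starts with Psma, Psmb, Psmc, Psmd, Psme, Psmf or Psmg. This gave 46 of the 14217 genes that had a probeset of their own. They fell into 7 alpha and 6 beta subunits of the constitutive core, 5 immunoproteasome genes, 6 ATPases and 11 other subunits of the 19S particle, 7 assembly chaperones, and the activator Psme4 with the inhibitor Psmf1. Psmc3ip and Psme3ip1 carry the prefix but are not subunits. Psmb6 and Psme3 were represented by probesets shared with other genes and were not analysed here.

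RNA came from dorsal skin of adult female Sprague-Dawley rats, with 1 array per sample. The naïve group of 6 samples had no surgery, and 2 groups of 5 samples were taken 7 or 14 days after transection and ligation of dorsal and lateral cutaneous nerves. Denervated skin was taken from the rostral zone served by T9 and T10, while the T11 nerves beside it were left whole. Every sample, naïve ones included, also held the cutaneous trunci muscle under the skin, which keeps its own motor supply. No sham-operated samples were analysed here, so surgery and nerve loss cannot be told apart. Keratinocyte, fibroblast and muscle genes marked all arrays as skin with muscle: mean log2 values in the naïve group were 13.09 for Krt5, 13.11 for Col1a1 and 13.84 for Acta1.

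The 26S proteasome breaks down proteins tagged with ubiquitin. Its 20S core is a barrel of alpha rings, which gate the entrance, and beta rings, which hold the proteolytic sites, and the 19S particle at its ends binds, unfolds and deubiquitinates the substrate. Under interferon the catalytic subunits Psmb5, Psmb6 and Psmb7 are replaced in newly built cores by Psmb8, Psmb9 and Psmb10, and the PA28 activator made of Psme1 and Psme2 is induced as well. The resulting immunoproteasome is abundant in leukocytes and supplies peptides for MHC class I.

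The 250 bases before the gene starts were searched on both strands for the core of the interferon-stimulated response element. This core is GAAA and GAAA with any 2 bases between them. Whether these letters bear on the expression results was not tested. RefSeq promoters of the GRCr8 assembly were found for 42 of the 46 members. The letters occurred in 2 of the 5 immunoproteasome promoters, those of Psmb10 and Psme2, in 3 of the 37 other members and in 3.41% of all 33469 promoters. The Psmb10 stretch, chr19:50743293-50743542 on the minus strand, held 2 matches, which begin 73 and 17 bases before the start. The single match of Psme2 is shown with its flanks at chr15:33052786-33052813, minus strand. It begins 53 bases before the start used in the RefSeq promoter set, which lies inside the span of all Psme2 transcripts, chr15:33048452-33053055. Both runs read 5′ to 3′ with the matches in capitals.
Psmb10: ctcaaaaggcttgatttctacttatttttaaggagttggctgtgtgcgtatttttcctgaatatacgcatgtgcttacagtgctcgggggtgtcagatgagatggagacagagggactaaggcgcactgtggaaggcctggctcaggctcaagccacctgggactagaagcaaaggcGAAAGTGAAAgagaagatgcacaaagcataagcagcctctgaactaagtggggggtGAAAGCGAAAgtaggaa
Psme2: ctggagagtGAAAGCGAAAgctggggct

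Psmb8, Psmb9 and Psme1 had no match to these letters in their windows. Psmb8 lies at chr20:4654068-4657049 and Psmb9 at chr20:4668952-4674421 in GRCr8, on either side of the peptide transporter gene Tap1. Among the other letters searched, the CCAAT box was found in 9 of 12 constitutive core promoters (75%) against 34% of all promoters and 5 of 14 of the 19S particle. The GC box GGGCGG stood in 29 of 42 member promoters (69%) against 30.5% of all. TGACNNNGC, the antioxidant response element core, stood in 6 of 42 (14.3%) against 10.1%, and TTCNNNGAA, the gamma-activated site core, in 4 of 42 (9.52%) against 7.67%.

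The naïve arrays did not form one uniform group, which touched the proteasome genes directly. Naïve replicates 1 and 2 had hair follicle marker scores of 1.85 and 2.07 (mean log2 deviation over 8 genes from each gene's mean across all arrays). Scores ranged from -4.16 to -3.91 on the 4 remaining naïve arrays, from -0.62 to 1.72 at 7 days and from 1.86 to 1.96 at 14 days. In 19 of the 46 proteasome genes (41.3%) these 2 arrays were also the highest of the naïve group, against 25.7% of all genes. This held for 7 of 13 constitutive core genes, 10 of 17 genes of the 19S particle and 0 of 5 immunoproteasome genes. Actin control probes, which report on RNA quality, gave a 3′ minus middle signal of 0.18 and 0.23 for naïve replicates 1 and 2. It was 0.52 to 1.20 for naïve replicates 3 to 6 and 0.05 to 0.29 for denervated skin. Their 3′ minus 5′ signal did not part the arrays in this way. It was 0.61 and 0.69 for naïve replicates 1 and 2, 0.14 to 0.65 for naïve replicates 3 to 6 and 0.47 to 0.74 for denervated skin. Pairwise correlations reached down to 0.931 within the naïve group, against 0.978 at 7 days and 0.993 at 14 days. The parts of hair cycle and RNA quality in the results below were not tested. Calls that changed without naïve replicates 1 and 2 are given with the genes concerned. Where those 2 arrays stood apart from the other naïve arrays, leaving them out was bound to move that gene's change against naïve. Such calls are no separate evidence of a change.

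Psmd8 and Psmd14 are given as examples of this split and were chosen after their values were seen. Leaving out the 2 naïve arrays where they were high was bound to raise their changes. The shares of all genes called in that fit rose too and are given further below. Psmd8, a subunit of the 19S lid, measured 10.45, 10.43, 9.58, 9.58, 9.49 and 9.60 (log2) in naïve replicates 1 to 6. It measured 10.46, 9.79, 10.27, 9.79 and 10.03 at 7 days and 10.50, 10.44, 10.30, 10.31 and 10.27 at 14 days. All 14-day arrays lay near naïve replicates 1 and 2 and above the other 4 naïve arrays. The log2 fold change at 14 days was 0.51 ± 0.19 (SE), which missed the threshold with all naïve arrays (limma adjusted p = 0.0594), and 0.80 ± 0.12 without naïve replicates 1 and 2 (adjusted p = 1.2e-04). Psmd14, the deubiquitinase of the lid, reached 9.67 and 9.63 where the hair score was high and 8.83 to 8.88 on the remaining naïve arrays. Its 14-day values were 9.23 to 9.48, and its log2 fold change of 0.26 ± 0.17 (adjusted p = 0.269) became 0.52 ± 0.11 without those 2 arrays (adjusted p = 0.0015). At 7 days both were likewise called higher without them, Psmd8 by 0.51 ± 0.12 (adjusted p = 0.0054) and Psmd14 by 0.35 ± 0.11 (adjusted p = 0.0236).

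**Figure D1:**
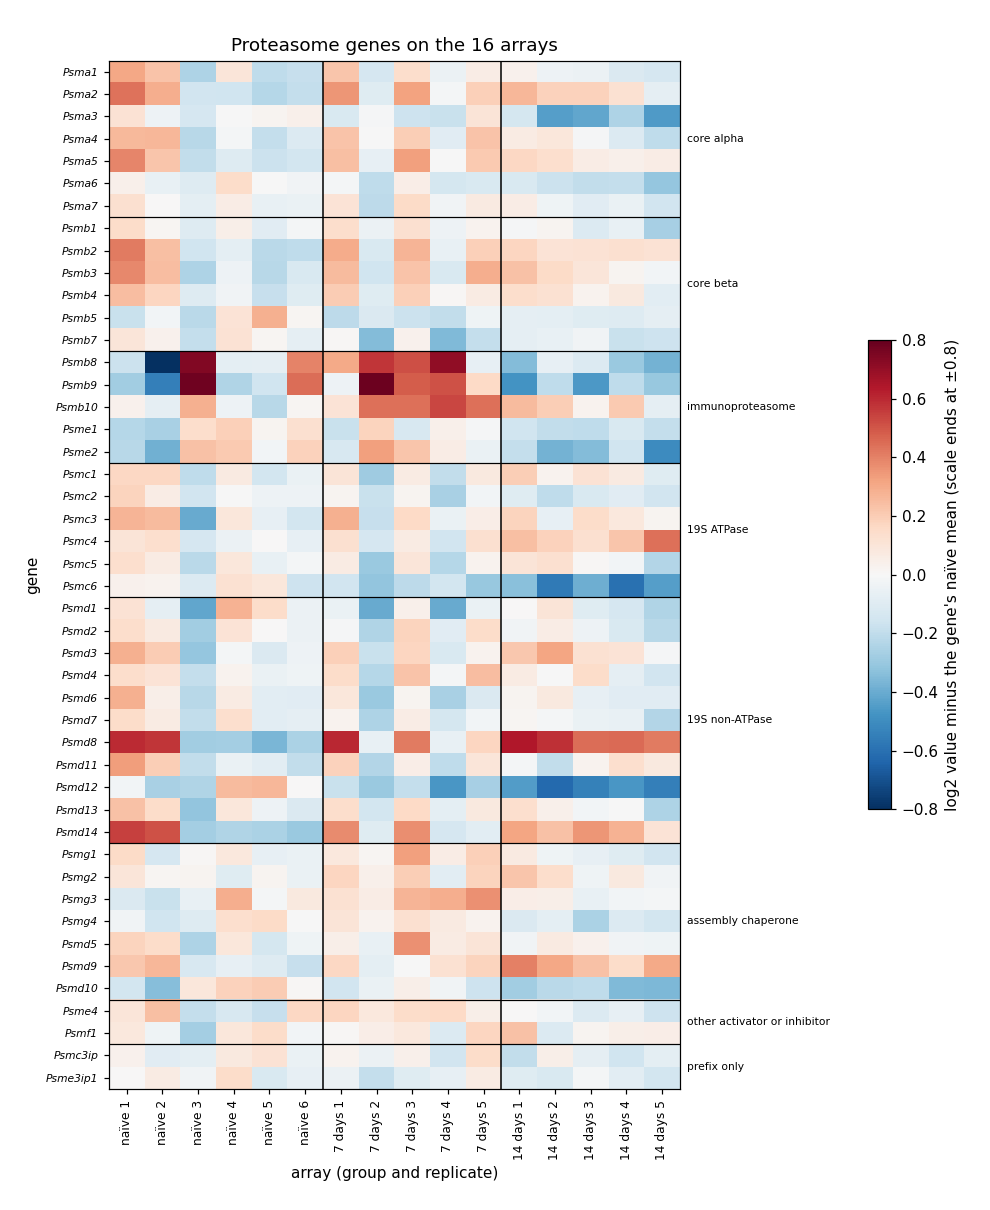
Heat map of the 46 proteasome genes (rows, grouped by role) on the 16 arrays (columns), coloured by the log2 value minus the gene's naïve mean. Naïve replicates 1 and 2 are red in many core and 19S genes, Psmd8 and Psmd14 above all, while Psmb8 and Psmb9 vary most in the immunoproteasome block.

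At 7 days 2 of the 46 proteasome genes passed the limma test at an adjusted p of 0.05 over all genes. Psmb10 rose by 0.39 on the log2 scale (SE 0.093, adjusted p = 0.0171), and Psmc6, an ATPase of the 19S base, fell by 0.23 (SE 0.067, adjusted p = 0.0419). The share called higher was 2.17% of members against 7.85% of all 14217 genes, and the share called lower 2.17% against 2.66%. The median log2 fold change was 0.04 over the members and -0.02 over all genes. The 44 genes that were not called had fold changes from -0.28 (Psmd12) to 0.41 (Psmb8). In skin sampled whole, fewer cells of a type and less RNA per cell cannot be told apart.

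At 14 days 7 members were called against naïve skin. Psmc4 and Psmd9 rose, which is 4.35% of the members against 8.95% of all genes. Psma3, Psma6, Psmc6, Psmd10 and Psmd12 fell, which is 10.9% of the members against 14.6% of all genes. The median over the members was -0.04, against 0.02 over all genes. Both comparisons with naïve skin use the same naïve arrays and are not independent of each other.

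Between 7 and 14 days 6 members were called. Psmc4 was higher at 14 days, 2.17% of the members against 8.86% of all genes. Psma3, Psmb9, Psmc6, Psme2 and Psmg4 were lower, 10.9% of the members against 10.1% of all genes. Shares of members near or under those of all genes were thus found in all 3 comparisons. The count of 5 lower moved widely with the processing. It was 1 after subtraction of array medians and 0 after a further quantile normalization. It was 11 when naïve arrays were kept out of the model and 12 with array weights. In the fits that gave 11 and 12 the share of all genes called lower rose too, as given further below.

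**Figure D2:**
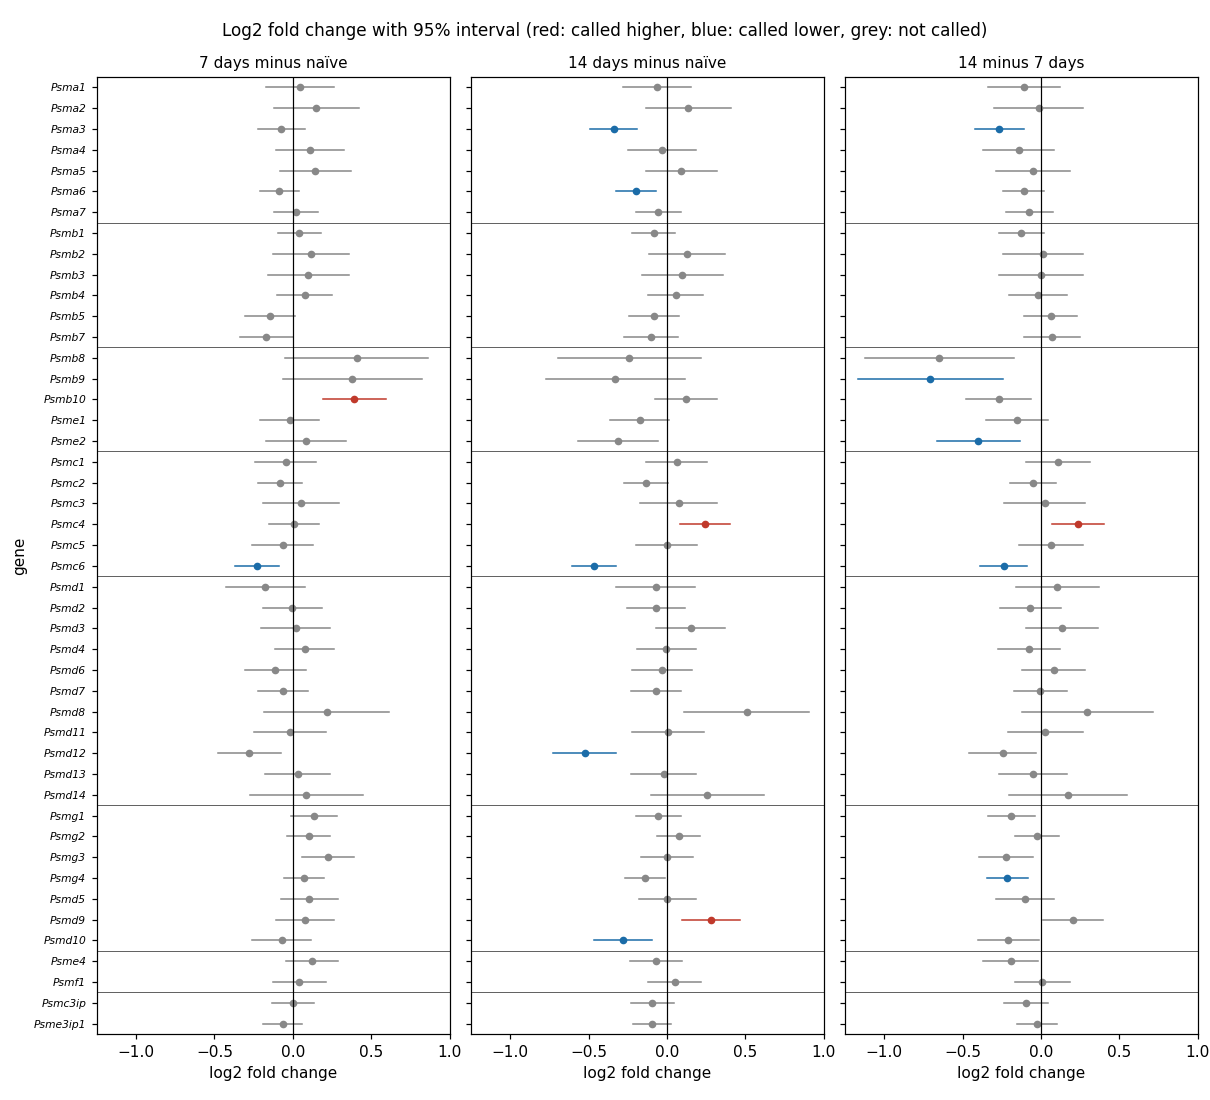
Log2 fold changes (points, horizontal axis) of the 46 genes with 95% confidence intervals (bars) in the 3 comparisons, coloured by the limma call. Most intervals cross 0, with Psmb10 the only red point at 7 days and Psmc6 and Psmd12 farthest to the left at 14 days.

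Of the 5 immunoproteasome genes, Psmb10 rose at 7 days and Psmb9 and Psme2 fell from 7 to 14 days. That is 20% of them against 7.85% of all genes, and 40% against 10.1%. These shares rest on 1 and 2 genes, and their difference from all genes was not tested. The median log2 fold change over the 5 was 0.38 at 7 days, -0.24 at 14 days and -0.40 from 7 to 14 days, where the 13 constitutive core genes had 0.05, -0.05 and -0.05. This difference between the lists was not tested. The 7-day median was 0.16 without naïve replicates 1 and 2, 0.13 with array weights and -0.064 with a leukocyte covariate. The 14-day median was -0.46 without those 2 arrays and 0.087 and 0.12 with sarcomere and hair covariates. At 14 days against naïve limma called 0 of the 5, and 1 of them, Psme2, had an unadjusted p under 0.05.

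Psmb10, the inducible trypsin-like subunit, measured 7.39, 7.28, 7.64, 7.31, 7.13 and 7.37 in naïve skin. It measured 7.46, 7.79, 7.79, 7.89 and 7.80 at 7 days and 7.60, 7.55, 7.38, 7.56 and 7.28 at 14 days. Replicates 2 to 5 at 7 days lay above every other array, while replicate 1 lay among the naïve values. The log2 fold change was 0.39 at 7 days, 0.12 at 14 days (SE 0.093, adjusted p = 0.344) and -0.27 from 7 to 14 days (SE 0.098, adjusted p = 0.0626). The 7-day call was lost without 7-day replicate 4, without naïve replicates 4 and 5, and when the 14-day arrays were kept out of the model. Without naïve replicates 1 and 2 the change was 0.38 (adjusted p = 0.0143).

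Psmb9, the inducible counterpart of Psmb6, measured 6.63, 6.36, 7.69, 6.67, 6.75 and 7.36 in naïve skin. At 7 days it measured 6.87, 7.69, 7.39, 7.42 and 7.07, and at 14 days 6.43, 6.71, 6.45, 6.71 and 6.61. Every 14-day array lay below every 7-day array, while the naïve arrays spanned both groups, with replicates 3 and 6 as high as the 7-day arrays. From 7 to 14 days Psmb9 fell by 0.71 (SE 0.22, adjusted p = 0.0356). Against naïve skin the changes of 0.38 ± 0.21 at 7 days (adjusted p = 0.235) and -0.33 ± 0.21 at 14 days (adjusted p = 0.251) did not pass. With naïve replicates 1 and 2 left out they were 0.17 ± 0.20 (adjusted p = 0.527) and -0.53 ± 0.20, the latter called lower (adjusted p = 0.0469). The call between times was lost when any 1 of 8 arrays was left out, namely 7-day replicates 2, 3 and 4 and each of the 14-day arrays, with values from -0.81 to -0.61 over all 16 omissions.

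Psmb8, the inducible chymotrypsin-like subunit, measured 7.74, 7.10, 8.66, 7.84, 7.84 and 8.31 in naïve skin. It measured 8.22, 8.48, 8.43, 8.63 and 7.85 at 7 days and 7.57, 7.85, 7.80, 7.62 and 7.53 at 14 days. The 14-day arrays and 7-day replicate 5 met at 7.85, and the naïve values again reached from below to above both groups. The log2 fold change was 0.41 ± 0.21 at 7 days (adjusted p = 0.216), -0.24 ± 0.21 at 14 days (adjusted p = 0.422) and -0.65 ± 0.22 from 7 to 14 days (adjusted p = 0.0542). The last of these passed when naïve replicate 2, naïve replicate 3 or 7-day replicate 5 was left out. Without naïve replicates 1 and 2 together it also passed, at the same value with an adjusted p of 0.0134, as did the 14-day change of -0.49 ± 0.18 (adjusted p = 0.0399), while the 7-day change was 0.16 ± 0.18 (adjusted p = 0.503).

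Psme2, the beta subunit of PA28, measured 8.98, 8.82, 9.43, 9.41, 9.18 and 9.38 in naïve skin. At 7 days it measured 9.07, 9.53, 9.42, 9.26 and 9.15, and at 14 days 9.01, 8.82, 8.85, 9.04 and 8.70. All 14-day arrays were below all 7-day arrays, and naïve replicates 1 and 2 lay among the 14-day values. Psme2 fell by 0.40 from 7 to 14 days (SE 0.12, adjusted p = 0.0379), was 0.09 ± 0.12 above naïve at 7 days (adjusted p = 0.652) and -0.31 ± 0.12 at 14 days (adjusted p = 0.0665). The call between times was lost with any of 7-day replicates 2 to 4 or 14-day replicates 2, 3 and 5 left out. Without naïve replicates 1 and 2 Psme2 was lower than naïve at 14 days (-0.46 ± 0.10, adjusted p = 0.0019).

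Psme1, the alpha subunit of PA28, was measured by 2 probesets that went apart. Their median measured 7.84, 7.80, 8.21, 8.25, 8.09 and 8.19 in naïve skin, 7.88, 8.24, 7.93, 8.10 and 8.05 at 7 days, and 7.90, 7.87, 7.86, 7.94 and 7.87 at 14 days. The naïve range held the whole 14-day range and the 7-day range overlapped it, and no change of the median passed (-0.02 ± 0.088, -0.17 ± 0.088 and -0.15 ± 0.092 in the 3 comparisons, adjusted p = 0.897, 0.153 and 0.232). The brighter probeset, with a mean of 10.3, fell by 0.42 at 14 days (SE 0.14, adjusted p = 0.041) and by 0.55 from 7 to 14 days (SE 0.14, adjusted p = 0.019). The dimmer one, with a mean of 5.68, was 0.07 ± 0.083 above naïve at 14 days and rose from 7 to 14 days by 0.24 ± 0.087 without passing the threshold (adjusted p = 0.0612). The gene value lies between probesets of opposite sign. Once naïve replicates 1 and 2 were left out, the gene value was called lower than naïve at 14 days (-0.30 ± 0.069, adjusted p = 0.0033).

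**Figure D3:**
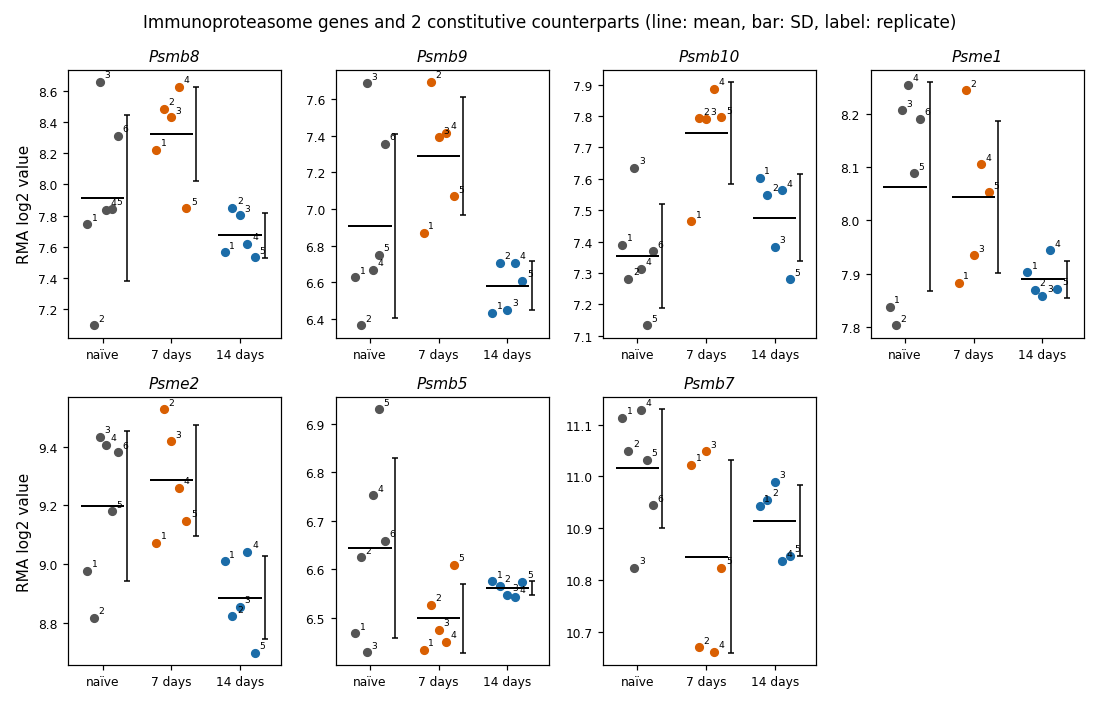
RMA log2 values (vertical axis, scaled per gene) of the immunoproteasome genes and of Psmb5 and Psmb7 on every array, with the group mean (line), SD (bar) and replicate number. For Psmb9 and Psme2 the 14-day points lie wholly below the 7-day points, while the naïve points span both.

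The constitutive catalytic subunits that these genes replace gave no call. Psmb5, the chymotrypsin-like subunit, measured 6.47, 6.62, 6.43, 6.75, 6.93 and 6.66 in naïve skin (median over its 3 probesets), 6.43, 6.53, 6.47, 6.45 and 6.61 at 7 days, and 6.57, 6.57, 6.55, 6.54 and 6.57 at 14 days. The naïve range held both other groups. Its log2 fold changes were -0.14 ± 0.075, -0.08 ± 0.075 and 0.06 ± 0.079. Its brightest probeset, with a mean of 11.3, gave 0.01, 0.05 and 0.04. Psmb7, the trypsin-like subunit, measured 11.11, 11.05, 10.82, 11.13, 11.03 and 10.94 in naïve skin, 11.02, 10.67, 11.05, 10.66 and 10.82 at 7 days, and 10.94, 10.96, 10.99, 10.84 and 10.85 at 14 days. At 7 days replicates 2 and 4 lay below all other arrays. Its changes were -0.17 ± 0.080 (adjusted p = 0.17), -0.10 ± 0.080 (adjusted p = 0.362) and 0.07 ± 0.083 (adjusted p = 0.567).

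Whether an inducible subunit and its constitutive counterpart changed unequally was asked of their difference within each array. Psmb9 with Psmb6 could not be formed, which left 6 tests on 2 pairs. Psmb8 minus Psmb5 shifted by 0.55 at 7 days, by -0.16 at 14 days and by -0.71 from 7 to 14 days. The exact two-sided permutation p was 0.113, 0.619 and 0.0238, adjusted over the 6 tests 0.143, 0.619 and 0.0714. Psmb10 minus Psmb7 shifted by 0.56, 0.22 and -0.34, with exact two-sided permutation p of 0.0173, 0.119 and 0.0556, adjusted 0.0714, 0.143 and 0.111. No difference passed after adjustment, where the smallest exact p possible was 0.0022 against naïve and 0.0079 between times. With the brightest Psmb5 probeset the Psmb8 shift from 7 to 14 days was -0.69 and passed (exact permutation, adjusted p = 0.0476). Leaving out naïve replicate 3 made 4 of the 6 pass (exact permutation, adjusted p = 0.0357 each). These were Psmb8 minus Psmb5 at 7 days (0.74) and between times (-0.71), and Psmb10 minus Psmb7 at 7 and 14 days (0.66 and 0.32). The Psmb8 minus Psmb5 test between times holds no naïve array, so its shift and exact permutation p of 0.0238 were unchanged. Only its adjustment over the 6 tests changed. Without 7-day replicate 1 both pairs passed between times (-0.72 and -0.45) and Psmb10 minus Psmb7 at 7 days (0.68), and without 7-day replicate 5 Psmb8 minus Psmb5 passed between times (-0.86).

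Markers of other cells moved beside the immunoproteasome genes. Of 19 leukocyte markers, 13 rose at 7 days (68.4% against 7.85% of all genes), Cd68 by 1.49 (SE 0.29, adjusted p = 0.0073). Their mean log2 deviation was -1.40 to 0.50 in naïve skin, 0.20 to 0.90 at 7 days and -0.09 to 0.20 at 14 days. From 7 to 14 days 4 of these markers fell (21.1% against 10.1% of all genes). Of the T cell markers, Cd8a lay between 4.33 and 4.58 over all arrays and Cd3e between 5.29 and 6.09. Cd4, from the same list, rose by 1.47 at 7 days (limma adjusted p = 0.0082) and by 1.14 at 14 days (limma adjusted p = 0.0176). Naïve replicate 3, the highest naïve array for Psmb8, Psmb9, Psmb10 and Psme2, was also the highest naïve array in leukocyte score. The lowest naïve arrays did not match in this way. Naïve replicates 4 and 5 had the lowest leukocyte scores (-1.14 and -1.40), with immunoproteasome scores of -0.01 and -0.11. Naïve replicate 2 had the lowest immunoproteasome score (-0.43), with a leukocyte score of -0.39. With the leukocyte score as a covariate the 7-day changes of Psmb8 and Psmb9 became -0.06 and -0.23, and 0 members were called at 7 days. From 7 to 14 days the falls of Psmb9 and Psme2 lost their calls in that fit (-0.41 and -0.33), while 4 members were called lower. At 7 days that fit called 2 of all 14217 genes, 1 in each direction.

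Genes that act with the immunoproteasome were described from lists chosen with earlier results known. Of 9 measured genes of MHC class I loading, the chaperones Calr (0.61), Canx (0.40) and Pdia3 (0.40) rose at 7 days. That is 33.3% of the list against 7.85% of all genes. At 14 days Calr was higher (0.36) and Nlrc5, the transactivator of class I genes, was lower (-0.81) than in naïve skin. B2m, the class I light chain, fell by 0.56 from 7 to 14 days. The calls of Calr and Nlrc5 at 14 days and of B2m are 11.1% of the list each. The matching shares of all genes were 8.95%, 14.6% and 10.1%. Median log2 fold changes of the list were 0.29, -0.10 and -0.27. Of 25 measured interferon response genes, Irf8 (0.95), Ifit2 (0.58), Irgm (0.54) and Jak2 (0.53) rose at 7 days, 16% against 7.85% of all genes. From 7 to 14 days 8 of the 25 fell (32% against 10.1% of all genes) and 1 rose (4% against 8.86%). Medians of this list were 0.14, -0.03 and -0.33. The part of leukocyte content in these results was not tested.

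**Figure D4:**
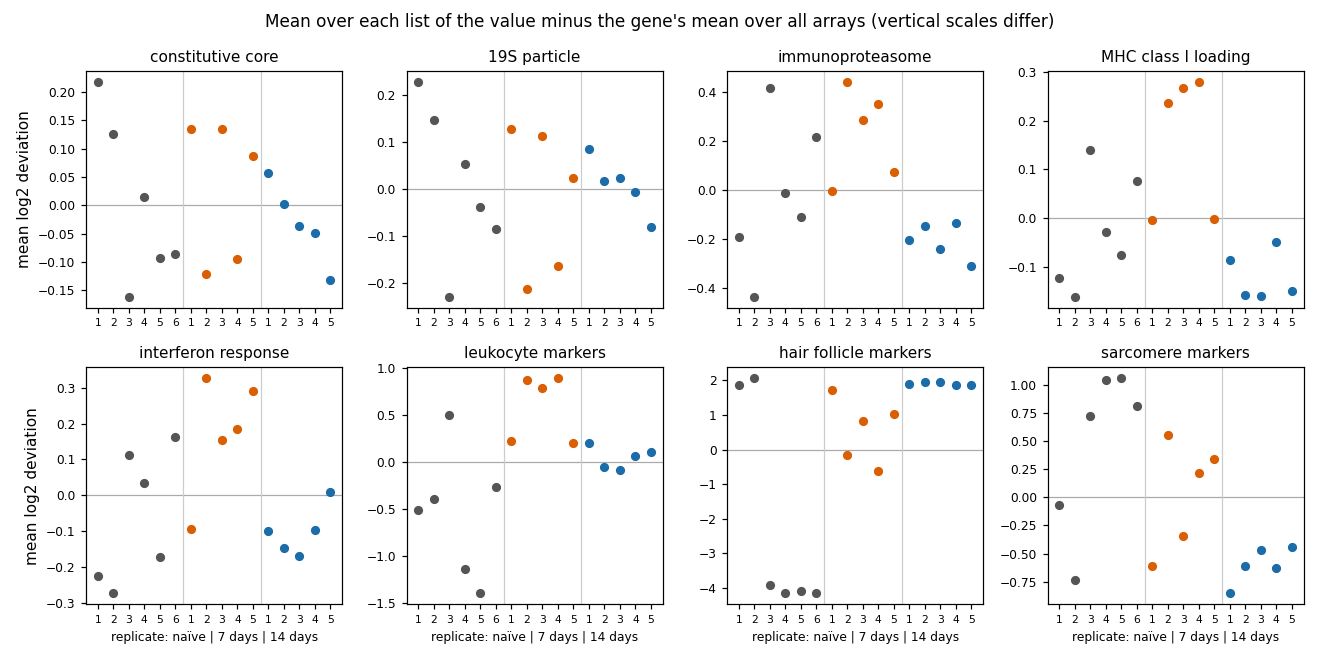
Mean log2 deviation of 8 gene lists (vertical axis, scales differ by panel) on each array, ordered by group and replicate. Among denervated samples, immunoproteasome, MHC class I and leukocyte scores are highest in 7-day replicates 2 to 4. Among naïve samples they are highest in replicate 3. Interferon response scores differ from this, with naïve replicate 6 and 7-day replicates 2 and 5 the highest of their groups. Hair scores set naïve replicates 1 and 2 apart from the other naïve arrays.

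Among the alpha subunits of the core, 2 of 7 were called, both lower at 14 days against naïve skin. That is 28.6% of them against 14.6% of all genes, a difference that rests on 2 genes and was not tested. Psma3 measured 8.57, 8.42, 8.33, 8.46, 8.48 and 8.50 in naïve skin, 8.34, 8.45, 8.29, 8.29 and 8.56 at 7 days, and 8.32, 8.02, 8.05, 8.21 and 8.01 at 14 days. All 14-day values lay below all naïve values, and 14-day replicate 1 lay within the 7-day range. It fell by 0.34 against naïve (SE 0.071, adjusted p = 0.0068) and by 0.27 from 7 to 14 days (SE 0.074, adjusted p = 0.0254), and its 7-day change was -0.07 ± 0.071. The call between times was lost without 7-day replicate 2 or 14-day replicate 2, 3 or 5. Psma6 fell by 0.20 at 14 days (SE 0.058, adjusted p = 0.0282), from 11.24 to 11.49 in naïve skin to 11.03 to 11.22. The Psma6 call was lost without naïve replicate 4 or any of 14-day replicates 3 to 5. The other 5 alpha subunits lay between -0.06 and 0.14 at 14 days.

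The 6 beta subunits of the constitutive core had 0 calls in the 3 limma comparisons, with 1 unadjusted p under 0.05, that of Psmb7 at 7 days. Their 95% intervals all lay between -0.34 and 0.37. Without naïve replicates 1 and 2, Psmb2 was higher at 7 days (0.28 ± 0.082, adjusted p = 0.0178) and at 14 days (0.29 ± 0.082, adjusted p = 0.0106). Psma2 and Psma5 were likewise called higher at both times in that fit, and Psma4 at 7 days. Naïve replicates 1 and 2 were the highest naïve arrays for each of these genes. Leaving them out was bound to raise the changes.

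Of the 6 ATPases that form the ring of the 19S base, Psmc4 and Psmc6 were called. Each call is 1 gene, 16.7% of this list, against 2.66% to 14.6% of all genes in those comparisons and directions. Psmc6 measured 7.35, 7.34, 7.20, 7.44, 7.41 and 7.15 in naïve skin, 7.16, 7.00, 7.11, 7.17 and 7.01 at 7 days, and 6.98, 6.75, 6.92, 6.72 and 6.88 at 14 days. The 14-day arrays lay below all others, and at 7 days 3 arrays lay below all naïve ones. The changes were -0.23 ± 0.067 at 7 days, -0.47 ± 0.067 at 14 days (adjusted p = 0.0011) and -0.24 ± 0.070 from 7 to 14 days (adjusted p = 0.0299). These values came from 1 of 3 probesets, the one of middle level. The other 2 gave -0.05 ± 0.068 and -0.11 ± 0.10 at 14 days, with no call in any comparison. The 14-day call held in each omission of 1 array. The 7-day call was lost in 8 of 16 omissions, namely naïve replicates 4 and 5, 7-day replicates 2 to 5 and 14-day replicates 3 and 5, and the call between times in 6, namely 7-day replicates 1, 3 and 4 and 14-day replicates 2, 4 and 5.

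Psmc4 measured 7.86, 7.90, 7.63, 7.71, 7.76 and 7.70 in naïve skin, 7.89, 7.63, 7.83, 7.61 and 7.89 at 7 days, and 8.003, 7.95, 7.89, 7.98 and 8.20 at 14 days. The 14-day arrays lay above all 7-day arrays and, save replicate 3, above all naïve arrays. Psmc4 rose by 0.24 against naïve (SE 0.075, adjusted p = 0.031) and by 0.24 from 7 to 14 days (SE 0.078, adjusted p = 0.0458), and was 0.01 ± 0.075 above naïve at 7 days. Its dimmer probeset gave 0.33 ± 0.11 at 14 days (adjusted p = 0.0343) and its brighter one 0.15 ± 0.11 (adjusted p = 0.303). The call against naïve was lost when any of naïve replicates 3 to 6 or 14-day replicates 1, 4 and 5 was left out. The call between times was lost in 10 of 16 such omissions, namely naïve replicates 4 and 6, 7-day replicates 2 to 4 and each 14-day array. Psmc1, Psmc2, Psmc3 and Psmc5 lay between -0.13 and 0.07 at 14 days and were not called.

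Of the 11 other subunits of the 19S particle, Psmd12, a lid subunit, was called. It was lower at 14 days, which is 9.09% of this list against 14.6% of all genes. It measured 8.39, 8.15, 8.17, 8.66, 8.67 and 8.41 in naïve skin, 8.24, 8.12, 8.22, 7.95 and 8.15 at 7 days, and 7.97, 7.79, 7.87, 7.94 and 7.87 at 14 days. All 14-day values were below all naïve values, and the 7-day values overlapped both groups. It fell by 0.52 at 14 days (SE 0.095, adjusted p = 0.0036). The 7-day change of -0.28 ± 0.095 (adjusted p = 0.0708) and the change from 7 to 14 days of -0.25 ± 0.099 (adjusted p = 0.0891) did not pass. The 7-day change was called without naïve replicates 1 and 2 (-0.35 ± 0.097, adjusted p = 0.0134). The 14-day call held in each omission of 1 array, with values from -0.58 to -0.47. It was lost when the model held the sarcomere score or the hair follicle score. The remaining 10 subunits lay between -0.07 (Psmd1) and 0.51 (Psmd8) at 14 days. Psmd3, Psmd8 and Psmd14 were called higher there without naïve replicates 1 and 2. Those 2 arrays were the highest naïve ones for these genes, so higher changes were bound to follow.

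Among the assembly chaperones, which build the core and the 19S base and then leave, 3 of 7 were called over the 3 comparisons. At 14 days against naïve skin 14.3% were higher and 14.3% lower, against 8.95% and 14.6% of all genes. Between times 14.3% were lower, against 10.1% of all genes. Each of these shares is 1 gene. Psmg4 measured 9.36, 9.23, 9.28, 9.52, 9.54 and 9.39 in naïve skin, 9.49, 9.42, 9.52, 9.46 and 9.42 at 7 days, and 9.27, 9.31, 9.13, 9.28 and 9.24 at 14 days. The 7- and 14-day arrays did not overlap, and Psmg4 was 0.21 lower at 14 days on the log2 scale (-0.21 ± 0.062, adjusted p = 0.0295). Its call was lost without 7-day replicate 3 or 4 or 14-day replicate 3 or 5. Psmg1 (-0.19 ± 0.070, adjusted p = 0.0691) and Psmg3 (-0.22 ± 0.082, adjusted p = 0.0648) lay below 7 days as well and missed the threshold. Both were called lower between times without naïve replicates 1 and 2 (adjusted p = 0.0427 and 0.0368 at the same values), and Psmg4 was called lower than naïve at 14 days (-0.19 ± 0.061, adjusted p = 0.0242).

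Psmd9 and Psmd10, chaperones of the 19S base, went in opposite directions at 14 days. Psmd9 measured 6.57, 6.62, 6.23, 6.29, 6.25 and 6.17 in naïve skin, 6.28 to 6.53 at 7 days and 6.76, 6.66, 6.59, 6.50 and 6.66 at 14 days. It rose by 0.28 at 14 days (SE 0.087, adjusted p = 0.0328), and naïve replicates 1 and 2 lay inside the 14-day range. These values lie between those of 2 probesets. The brighter one, with a mean of 7.98, gave 0.41 ± 0.14 at 14 days (limma adjusted p = 0.0413). The dimmer one, with a mean of 4.95, gave 0.15 ± 0.070 (limma adjusted p = 0.127). At 7 days they gave 0.24 and -0.08, without a call. Psmd10, also known as gankyrin, measured 8.48, 8.29, 8.72, 8.81, 8.83 and 8.64 in naïve skin, 8.46 to 8.68 at 7 days and 8.35, 8.41, 8.42, 8.28 and 8.27 at 14 days. It fell by 0.28 at 14 days (SE 0.088, adjusted p = 0.0331), with naïve replicate 2 inside the 14-day range. The 14-day calls of both gene values were each lost in 8 of 16 omissions of 1 array. For both genes those were naïve replicates 3 to 6 and 14-day replicates 1 and 5. The others were 14-day replicates 2 and 3 for Psmd9 and 2 and 4 for Psmd10. Without naïve replicates 1 and 2 Psmd9 changed by 0.40 ± 0.067 (adjusted p = 3.2e-04) and Psmd10 by -0.40 ± 0.063 (adjusted p = 1.8e-04). Those 2 arrays were the highest naïve ones for Psmd9 and the lowest for Psmd10, so larger changes were bound to follow. In that fit Psmd9 was also higher at 7 days (0.20 ± 0.067, adjusted p = 0.0359) and between times (0.20 ± 0.064, adjusted p = 0.0302), and Psmd10 lower (-0.19 ± 0.063, adjusted p = 0.0294, and -0.21 ± 0.060, adjusted p = 0.0197).

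**Figure D5:**
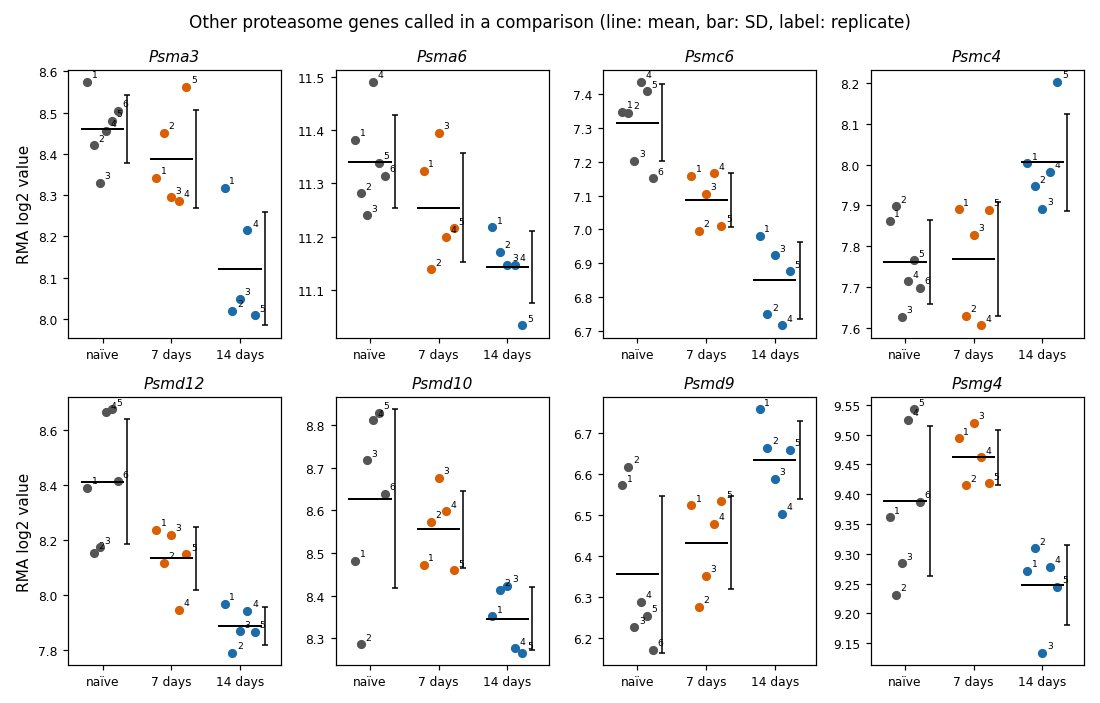
RMA log2 values (vertical axis, scaled per gene) of the 8 called members outside the immunoproteasome on every array, with the group mean (line), SD (bar) and replicate number. The 14-day points lie below all naïve points for Psma3, Psma6, Psmc6 and Psmd12, and naïve replicates 1 and 2 lie inside the 14-day range for Psmd9.

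Psme4, the PA200 activator, and Psmf1, the PI31 inhibitor, were not called on their gene values. Psme4 was -0.07 ± 0.078 at 14 days, while its 3 probesets gave -0.88 ± 0.16 (adjusted p = 0.0029), -0.12 ± 0.076 and -0.07 ± 0.079. The first of these was called against naïve skin, and from 7 to 14 days the first (-0.64 ± 0.16, adjusted p = 0.0175) and the second (-0.24 ± 0.079, adjusted p = 0.0462) were. The gene value of Psme4 was called, without naïve replicates 1 and 2, higher at 7 days (0.21 ± 0.072, adjusted p = 0.0395) and lower between times (-0.19 ± 0.068, adjusted p = 0.0454). Psmf1 was 0.04 ± 0.079 at 7 days and 0.05 ± 0.079 at 14 days. Psmc3ip and Psme3ip1 had changes between -0.10 and 0.003 in the 3 comparisons, and neither was called.

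Removing naïve replicates 1 and 2 raised the counts of called members. At 7 days 9 were then higher with 3 lower, at 14 days 8 with 10, and between times 2 with 10. The shares of all genes called in that fit rose too, to 19% and 16.4%, 21.1% and 21.8%, and 13.8% and 16.2%. Psmb8, Psmb9, Psme1 and Psme2 were all called lower than naïve at 14 days in it. Naïve replicates 1 and 2 were the lowest naïve arrays for each of these genes, so larger falls were bound to follow. Psma3, Psma6, Psmc6, Psmd10 and Psmd12 fell and Psmc4 and Psmd9 rose in that fit as in the one with all arrays. When the model held the hair follicle score, 0 members were called higher and 1 lower at 14 days, where 0.549% and 1.59% of all genes were called. The sarcomere score gave 0 and 1, with 0.521% and 1.11% of all genes. Of 17 sarcomere genes 14 fell at 14 days (82.4% against 14.6% of all genes). The sarcomere score was -0.73 to 1.06 in naïve skin, -0.61 to 0.56 at 7 days and -0.85 to -0.44 at 14 days. The part of muscle content in the proteasome results was not tested.

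Of 14 measured genes that regulate or assist the proteasome, 2 rose and 5 fell at 14 days, 14.3% and 35.7% of that list against 8.95% and 14.6% of all genes. Nfe2l2, a transcription factor of the stress response, fell by 0.45 (SE 0.088, adjusted p = 0.0046), Usp14, a deubiquitinase on the 19S particle, by 0.31 (SE 0.048, adjusted p = 0.0016), Txnl1, a thioredoxin-like protein of the 19S particle, by 0.62 and Ddi2, the protease that activates Nfe2l1, by 0.23. Adrm1, a ubiquitin receptor of the 19S particle, rose by 0.42 from 7 to 14 days (SE 0.10, adjusted p = 0.0163), and Zfand5, which stimulates the proteasome, by 0.39. At 7 days Ecpas, an adaptor of the 26S proteasome, fell by 0.52 and Zfand2a rose by 0.35. Of 13 ubiquitin and shuttle genes, limma called 0 in each comparison, with 2, 3 and 5 at an unadjusted p under 0.05. Trim63, a muscle ubiquitin ligase of atrophy, fell by 1.77 at 14 days (SE 0.40, adjusted p = 0.009), while Fbxo32, the other such ligase, was 0.35 ± 0.19 above naïve (adjusted p = 0.186).

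Spread within groups limited what could be called. The median SD over the members was 0.173 in naïve skin, 0.144 at 7 days and 0.0974 at 14 days, against 0.176, 0.148 and 0.0981 over all genes. In data simulated for the 7-day comparison on 14217 genes, 22% of genes changed by 0.25 (log2) were recovered and 80% of those changed by 0.5. The simulation drew genes independently, gave each gene the same spread in all groups and changed 200 genes. It lacked the split of the naïve arrays, so recovery in the real data may differ.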

How the data were processed

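Expression on 16 Affymetrix arrays was summarised by the authors with RMA, and the deposited values are log2 intensities per probeset. The submitters' processing notes name R 3.0.1 and no RMA version. RMA sets all arrays to 1 distribution, so values are relative within an array. Of 31099 probesets, 57 controls, 436 with several genes and 9780 with none were removed, and the 20826 others were collapsed to the median per gene (14217 genes, 4525 with more than 1 probeset). Names came from the platform annotation and RefSeq (GRCr8).

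All genes were fitted in 1 limma model over the 3 groups (R 4.3.3, limma 3.58.1) with Benjamini-Hochberg adjustment over all genes and a threshold of 0.05. Pairs of subunits were tested by exact permutation. Array values were written out for Psmb5, Psmb7 to Psmb10, Psme1, Psme2 and the 3 members with the largest absolute moderated t in each comparison, and other members were named where called or where their probesets disagreed. Per-array values of other called genes, of Psmd8 and Psmd14, and fold changes of Psmg1, Psmg3, Psme4 and Psmf1 go beyond that rule and were chosen after their values were seen. The members and lists were chosen with earlier results of these data known. Alternatives were other probeset collapses, scalings, filters, weights, models, covariates and left-out arrays. The labels list separate samples without naming animals or a batch, so p-values measure the spread between these samples, which may be technical. Deviations of same-numbered arrays had correlations of -0.55 to 0.58, and of 0.03 to 0.29 for replicates 4 and 5. This check cannot exclude a pairing or a shared batch, and no label states one. The limma step was tested on simulated data, where 4.55% of calls were false. Genes were independent and groups equally spread there, so this share may not hold for the real arrays. The number of arrays limits the precision.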

Additional observations from a re-analysis of the deposited data

Results flagged for a closer look

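Psmb10 measured 7.46 in 7-day replicate 1, while the other 4 arrays of that group measured 7.79 to 7.89, and the gap took 0.775 of the group's range. It was the only such array among 45 groups of values examined, where chance gives about 1 in 20.

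For 6 members the change from naïve skin differed between the 2 times, by the limma test of 14 against 7 days. The differences were -0.27 for Psma3 (adjusted p = 0.0254), -0.71 for Psmb9 (adjusted p = 0.0356), -0.40 for Psme2 (adjusted p = 0.0379), 0.24 for Psmc4 (adjusted p = 0.0458), -0.24 for Psmc6 (adjusted p = 0.0299) and -0.21 for Psmg4 (adjusted p = 0.0295).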

How the results depend on the processing

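Counts of called members are given as higher and lower at 7 days against naïve, at 14 days against naïve and at 14 against 7 days, where the reported counts were 1 and 1, 2 and 5, and 1 and 5. Array weights gave 3 and 1, 8 and 10, and 1 and 12, where the shares of all genes were 15% and 12%, 25.1% and 24%, and 15.9% and 18.2%. The brightest probeset gave 1 and 0, 1 and 5, and 0 and 6, array medians 1 and 3, 2 and 5, and 2 and 1, and a further quantile normalization 1 and 2, 3 and 3, and 1 and 0. Each probeset tested singly gave 1 and 1, 2 and 7, and 2 and 7. Trended moderation gave 1 and 0, 2 and 4, and 0 and 5, and omission of the dimmest 25% of genes 1 and 1, 2 and 5, and 0 and 5. With only the compared groups the counts were 0 and 0, 1 and 4, and 2 and 11 (all genes 1.86% and 0.218%, 6.81% and 11.7%, and 13.2% and 17.7%), and under an adjusted p of 0.01 they were 0 and 0, 0 and 3, and 0 and 0. The sarcomere covariate gave 2 and 1, 0 and 1, and 0 and 5, the hair covariate 4 and 1, 0 and 1, and 0 and 7, and the leukocyte covariate 0 and 0, 1 and 4, and 0 and 4 (the last 2 comparisons, all genes 3.28% and 6.96%, and 3.09% and 5.31%). Without naïve replicates 1 and 2 the counts were 9 and 3, 8 and 10, and 2 and 10, and without naïve replicates 4 and 5 they were 1 and 0, 0 and 3, and 0 and 7 (all genes 2.43% and 0.324%, 1.77% and 4.98%, and 10.6% and 12.9%). The replicate block gave 0 and 0, 0 and 3, and 0 and 3 (all genes 5.25% and 0.823%, 2.58% and 6.32%, and 7.77% and 8.51%), although no label states that the numbers pair the samples. Leaving out 1 array gave 0 to 2 and 0 to 2, 0 to 3 and 3 to 8, and 0 to 1 and 0 to 7. The causes were not tested. Where no share or count of all genes is given, a member count does not show whether the members moved apart from all genes. With array medians 951 genes were higher and 1492 lower at 7 days, against 1116 and 378, and 2079 and 1005 between times, against 1260 and 1430. The median over the members from 7 to 14 days was -0.05 as reported, 0.002 with array medians and 0.08 after quantile normalization. At 7 days it was 0.04, -0.032 and -0.019, and at 14 days -0.04, -0.065 and 0.05.

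Some values changed sign. Psme1 at 7 days was 0.13 on its brighter probeset, 0.0059 with the replicate block, 0.088 and 0.15 with the sarcomere and hair covariates and 0.034 without naïve replicates 4 and 5, and ran from -0.072 to 0.021 with 1 array left out. Psme1 at 14 days was 0.087 and 0.082 with those covariates and 0.069 on its dimmer probeset, which gave 0.24 between times. Psme2 at 7 days was -0.041 with array weights, -0.060 with the leukocyte covariate and -0.065 without naïve replicates 1 and 2. With the leukocyte covariate Psmb8 and Psmb9 at 7 days were -0.064 and -0.23 and Psmb10 at 14 days was -0.014. At 14 days Psmb8 was 0.16 and 0.27 and Psmb9 0.066 and 0.12 with the sarcomere and hair covariates. The dimmest Psmc6 probeset was 0.019 between times. None of these reversed values passed the threshold. Calls that were gained without 1 array were those of Psme2 at 14 days (naïve replicate 1 or 2), Psme1 at 14 days (naïve replicate 2) and Psmb10 between times (naïve replicate 3 or 5 or 7-day replicate 1).

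With 1 array left out, Psmb8 minus Psmb5 ran from 0.39 to 0.74, -0.32 to 0.034 and -0.86 to -0.62 in the 3 comparisons, and Psmb10 minus Psmb7 from 0.48 to 0.68, 0.18 to 0.32 and -0.45 to -0.26. Psmb8 minus Psmb5 at 14 days was 0.034 without naïve replicate 3. With the brightest probeset Psmb8 minus Psmb5 was -0.69 between times and passed. The tests of Psmb9 minus Psmb6 were not run.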
